A study of Mus musculus with 12 samples.

Results

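The genes of the cell cycle and of DNA replication were followed in mouse regulatory T cells (Treg) that had or had lost Ikaros, the zinc finger transcription factor encoded by Ikzf1. The group comprised 57 genes chosen by name, 24 that act in S phase or its preparation and 33 that act in mitosis, out of 36222 genes in the expression table. All 57 were present and each name matched 1 gene. Of these, 51 reached a group mean of 5 TPM (transcript level per length of transcript, scaled to a fixed total per library) in at least 1 group and were tested among 13318 such genes, 21 of the S phase genes and 30 of the mitotic genes. The other 6, namely Ccne1, Gins1, Gins2, Ccnb1, Kif2c and Spc25, had highest group means of 3.75 to 4.83 TPM and are described without a test.

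The data are 12 RNA-seq libraries, 3 for each of 4 conditions, each made from YFP+ Treg sorted from the CD4+ cells of the spleen of individual mice. The wild-type (WT) mice carried the Foxp3-IRES-YFP-Cre allele, which expresses Cre and the yellow fluorescent protein under the control of Foxp3. The Ikzf1 conditional knockout (cKO) mice carried the same Cre and floxed Ikzf1 alleles (Ikzf1-fl/fl). Cells of each genotype were lysed directly after the sort (ex vivo, from mice of 6 to 8 weeks) or after 4 h on plate-bound antibodies to CD3 and CD28, 1 µg/ml of each, (stimulated). The labels do not say whether an ex vivo and a stimulated library came from the same mouse. The stimulated cells had also been held in culture for that time, and culture and antibody cannot be told apart in this design.

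Ikzf1 RNA was lower in every cKO library, at 83.8 to 125 TPM in WT and 38.8 to 44.3 TPM in cKO ex vivo, and at 66.4 to 83.4 and 17.04 to 31.6 TPM after stimulation. After scaling between libraries the log2 changes were -1.52 ex vivo (adjusted p = 5.45e-05, n = 3 per group) and -1.29 after stimulation (adjusted p = 0.000161). The sorted cells held Treg markers at 912 to 2455 TPM summed over 7 genes, with Foxp3 at 82.7 to 253 TPM. Markers of other cells summed to 8.65 to 22.0 TPM for B cells (4 genes), 11.4 to 28.7 for myeloid cells (5), 8.84 to 16.3 for CD8 T cells (2), 3.59 to 7.23 for NK cells (3), 9.02 to 15.9 for erythroid precursors (5) and 7.18 to 17.1 for plasma cells (3), while 1716 receptor genes of smell and pheromone sensing had library medians of 0.556 to 1.15 TPM. The libraries held 8208659 to 20247649 assigned reads, and 25 to 7005 reads stood behind a member's value in a library. A single transcript, Gm10800, took 17.7% to 55.9% of the TPM, so changes are given after scaling between libraries. Xist was at 179 TPM in the third WT ex vivo library and at most at 1.36 TPM in the other 11, which marks that mouse as a female among males. Among genes of T cell activation, Egr2 and Myc rose in WT (1.48 and 0.61 on the log2 scale, adjusted p = 5.12e-05 and 0.0113) and in cKO (1.31 and 0.64, adjusted p = 9.21e-05 and 0.00703). Cd69 fell in both (-1.36 and -1.71, adjusted p = 0.000517 and 9.42e-05), Nr4a1 fell in WT (-0.55, adjusted p = 0.0307) and was not called in cKO (0.16, adjusted p = 0.464), and Il2ra rose in cKO (0.65, adjusted p = 0.00583) and was not called in WT (-0.15, adjusted p = 0.476).

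A dividing cell copies its DNA once in S phase and separates the copies in mitosis. Entry into S phase is driven by the E2F factors once the retinoblastoma family releases them, and their targets encode the MCM helicase, the clamp Pcna, the polymerases and the enzymes that make deoxynucleotides. Mitotic genes are switched on later, in G2, through promoters that carry a cell cycle genes homology region (CHR) and CCAAT boxes, bound by MuvB complexes with B-Myb and Foxm1 and by NF-Y. In resting cells the DREAM complex holds both groups silent. A share of Treg is known to divide in the resting mouse.

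The promoters of 3 mitotic genes and 3 S phase genes, among those named below, are shown. They were not picked to stand for all members, whose letters are counted after them. Pcna, which had the largest S phase changes with stimulation, is not shown. Its window holds CCAAT and no E2F letters. Each run is 300 bases of RefSeq sequence (GRCm38.p6), from 250 bases before to 50 after the annotated start, 5′ to 3′ on the strand of the gene. Capitals mark the CHR letters TTTGAA or TTCGAA, the box CCAAT and the E2F letters TTTCCCGC, TTTGGCGC, TTTCGCGC or TTTGCCGC, each searched on both strands.
Mki67 (chr7:135716330-135716629, minus strand): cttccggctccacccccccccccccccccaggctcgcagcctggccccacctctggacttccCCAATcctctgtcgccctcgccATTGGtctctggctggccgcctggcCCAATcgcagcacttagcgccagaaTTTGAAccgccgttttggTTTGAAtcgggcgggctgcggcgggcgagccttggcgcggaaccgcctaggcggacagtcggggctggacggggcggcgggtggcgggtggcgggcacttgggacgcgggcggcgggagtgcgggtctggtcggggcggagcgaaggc
Kif11 (chr19:37376132-37376431, plus strand): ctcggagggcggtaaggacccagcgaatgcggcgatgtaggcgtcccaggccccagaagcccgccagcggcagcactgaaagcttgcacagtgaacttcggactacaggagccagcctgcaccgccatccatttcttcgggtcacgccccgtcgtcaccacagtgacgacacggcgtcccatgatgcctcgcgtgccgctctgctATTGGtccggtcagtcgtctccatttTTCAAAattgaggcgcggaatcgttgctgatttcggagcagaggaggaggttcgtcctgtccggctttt
Ccnb2 (chr9:70421505-70421804, minus strand): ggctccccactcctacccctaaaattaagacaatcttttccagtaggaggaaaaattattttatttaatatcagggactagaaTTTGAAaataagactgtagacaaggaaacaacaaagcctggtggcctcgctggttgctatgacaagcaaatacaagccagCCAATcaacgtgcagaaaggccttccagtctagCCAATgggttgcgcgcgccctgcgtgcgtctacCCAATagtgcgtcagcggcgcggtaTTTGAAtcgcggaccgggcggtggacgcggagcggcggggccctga
Mcm3 (chr1:20820263-20820562, minus strand): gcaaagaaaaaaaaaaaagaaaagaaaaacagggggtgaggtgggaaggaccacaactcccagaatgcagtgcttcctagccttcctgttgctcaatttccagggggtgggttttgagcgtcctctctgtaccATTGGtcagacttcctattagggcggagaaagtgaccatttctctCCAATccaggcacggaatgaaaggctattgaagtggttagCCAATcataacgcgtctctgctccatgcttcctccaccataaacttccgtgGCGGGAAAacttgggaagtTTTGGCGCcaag
Mcm6 (chr1:128359656-128359955, minus strand): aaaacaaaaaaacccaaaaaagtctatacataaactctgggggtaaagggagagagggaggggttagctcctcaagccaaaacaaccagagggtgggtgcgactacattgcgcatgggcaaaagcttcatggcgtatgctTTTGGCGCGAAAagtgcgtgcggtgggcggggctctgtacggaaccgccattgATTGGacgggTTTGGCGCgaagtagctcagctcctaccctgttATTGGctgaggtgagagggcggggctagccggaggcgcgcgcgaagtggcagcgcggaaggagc
E2f2 (chr4:136172024-136172323, plus strand): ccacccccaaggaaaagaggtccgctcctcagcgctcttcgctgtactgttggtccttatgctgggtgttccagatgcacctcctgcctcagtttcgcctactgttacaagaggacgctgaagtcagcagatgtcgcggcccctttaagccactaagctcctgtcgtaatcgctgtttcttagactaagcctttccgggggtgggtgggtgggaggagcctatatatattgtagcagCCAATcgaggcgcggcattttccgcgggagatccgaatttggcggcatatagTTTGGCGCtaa

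Mki67 and Ccnb2 each hold more than 1 CHR, Kif11 holds 1 on the reverse strand, and all 3 hold CCAAT. Mcm3, Mcm6 and E2f2 hold E2F letters, in Mcm6 as an overlapping pair of matches in 1 run and a separate match at -47. None of these 3 windows holds a CHR, although a second window of E2f2, not shown, does. Windows were found for 46 of the 57 members, 18 S phase and 28 mitotic genes, 3 of them with 2 windows. Ccna2, Gins1, Gmnn, Aurkb, Foxm1, Gins2, Tpx2, Mcm4, Ccne2, Pole and Kif20a had none in the table used. CHR letters stood in 21 of 28 mitotic genes (75.0%) and 4 of 18 S phase genes (22.2%), against 21.7% of all 27025 genes with a window. Among the mitotic members, the median position of the CHR letters was -19 from the start. E2F letters stood in 7 of 18 S phase genes (38.9%) and 2 of 28 mitotic genes (7.14%), against 2.6% of all genes. CCAAT was found in 66.7% of the S phase and 71.4% of the mitotic genes, and in 41.1% of all genes. A match of letters is a description of the window and not a measured binding site.

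Levels were first summed over each group of genes in each library. Summed over the 33 mitotic genes and scaled between libraries, levels were 252, 268 and 271 TPM in WT and 350, 356 and 338 in cKO Treg ex vivo. After stimulation they were 253, 179 and 260 TPM in WT and 246, 165 and 218 in cKO Treg. All 3 cKO ex vivo libraries were above the other 9. Summed over the 24 S phase genes, levels were 384, 360 and 448 TPM in WT and 454, 401 and 420 in cKO Treg ex vivo. After stimulation they were 277, 262 and 278 TPM in WT and 248, 252 and 246 in cKO Treg. On this scale the ex vivo genotypes overlapped, every stimulated library was below every ex vivo library, and the stimulated genotypes did not overlap. All 3 statements depended on the scaling. On the TPM as deposited the S phase sums were 291 to 422 TPM in WT and 466 to 478 TPM in cKO ex vivo, with no overlap. After stimulation they were 244 to 337 TPM in WT, which overlapped WT ex vivo, and 180 to 262 TPM in cKO, which overlapped WT stimulated. On the scaled TPM without Pcna, a sum taken after the values were seen, the other 23 S phase genes were at 292, 287 and 334 TPM in WT and 373, 347 and 340 TPM in cKO ex vivo, so that every cKO library was above every WT library. These are bulk samples, in which fewer dividing cells and less RNA per cell cannot be told apart. Ex vivo Pcna was the most abundant S phase gene, with group means of 88.8 TPM in WT and 79.4 TPM in cKO. After stimulation Mcm6 (43.8 TPM in WT and 27.6 in cKO) and Mcm4 (31.3 and 20.8) were above Pcna (22.9 and 15.9). Over all 12 libraries Mki67, Cenpa and Top2a had the highest mean TPM of the mitotic genes.

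**Figure D1:**
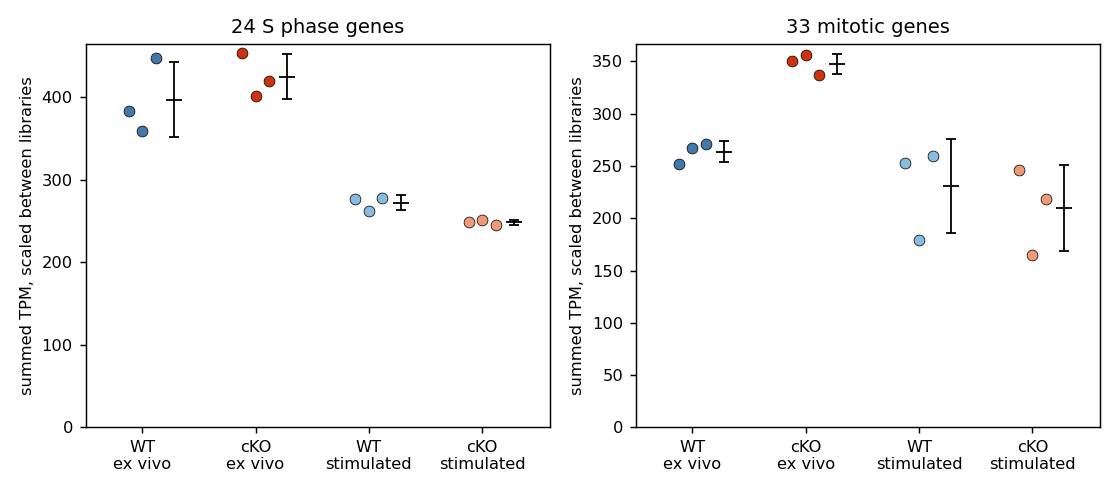
Summed level of the 24 S phase genes (left) and the 33 mitotic genes (right) in each library, in TPM scaled between libraries; dots are libraries, bars the mean ± SD of 3. The mitotic sum is highest in the 3 cKO ex vivo libraries (338 to 356), and the S phase sum is lower in all 6 stimulated libraries (246 to 278) than in the 6 ex vivo libraries (360 to 454).

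**Figure D2:**
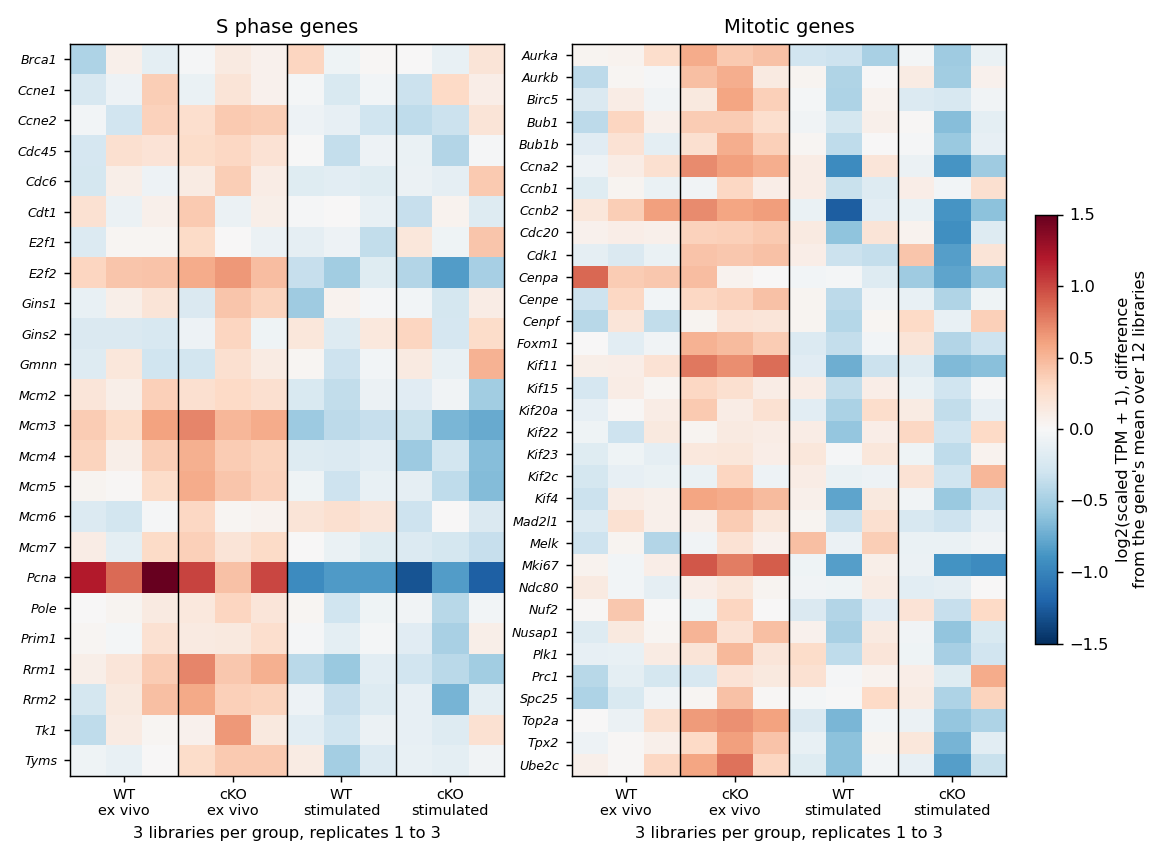
Level of each member in the 12 libraries, as log2(scaled TPM + 1) minus the gene's mean over the libraries (red above, blue below, color scale held at ±1.5). Pcna, Mcm3 and E2f2 divide the ex vivo from the stimulated libraries, whereas Mki67, Kif11 and Top2a are high in the 3 cKO ex vivo libraries and low in WT stimulated 2, cKO stimulated 2 and cKO stimulated 3.

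The first comparison set cKO beside WT Treg taken ex vivo. Most mitotic genes stood higher in cKO than in WT Treg ex vivo, by modest amounts, and the S phase genes leaned the same way by less. Mki67, the gene of the proliferation antigen Ki-67 that coats mitotic chromosomes, was at 30.004, 20.6 and 26.3 TPM in WT and 53.6, 53.2 and 55.6 TPM in cKO. Kif11, the motor that pushes the spindle poles apart, was at 10.9, 8.11 and 10.3 TPM in WT and 17.8, 18.4 and 19.4 TPM in cKO. Top2a, the topoisomerase that untangles sister chromatids, was at 15.8, 10.8 and 16.0 TPM in WT and 23.99, 27.6 and 24.7 TPM in cKO. For these 3 genes every cKO library was above every WT library.

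Only Kif11 passed the test over all genes, with a log2 change of 0.64 ± 0.16 (SE, n = 3 per group, adjusted p = 0.0377). That is 1 of 30 tested mitotic genes higher and 0 lower, where 3.62% of all tested genes were called higher and 1.67% lower (5.29% in either direction). The call depended on the processing, since adjusted p ranged from 0.000911 to 0.490 over 22 alternatives and stayed under 0.05 in 8 of them. It was lost when any 1 of the 6 ex vivo libraries was left out (adjusted p = 0.0982, 0.0960 and 0.0926 without WT ex vivo 1, 2 and 3, and 0.113, 0.0785 and 0.124 without cKO ex vivo 1, 2 and 3). It was lost as well without WT stimulated 3 (0.0562) and without cKO stimulated 3 (0.0520), which enter through the shared spread and the scaling. Mki67 changed by 0.83 (95% interval 0.28 to 1.39, adjusted p = 0.0917), Top2a by 0.59 (0.22 to 0.96, adjusted p = 0.0742) and Foxm1, the factor that activates G2 and mitotic genes, by 0.52 (0.18 to 0.87, adjusted p = 0.0889). These intervals lie above 0 before adjustment and none of the 3 passed after it.

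Among the 33 mitotic genes, 31 had a positive change and 2 a negative one (Cenpa -0.37 and Nuf2 -0.05), with a median of 0.35 against -0.01 for all tested genes. In 20 of the 30 tested mitotic genes the 3 cKO libraries were all above the 3 WT libraries on the scaled TPM, and in 0 of them all below. Over all tested genes this held for 11.6% and 9.95%. The 20 include regulators of mitotic entry and exit (Cdk1, Ccna2, Plk1, Aurka, Aurkb, Cdc20, Ube2c), kinesins (Kif4, Kif11, Kif15, Kif20a, Kif23) and spindle and chromosome proteins (Tpx2, Nusap1, Cenpe, Birc5, Bub1b). At an unadjusted p under 0.05, 8 mitotic genes were higher and 1, Cenpa, was lower, against 9.99% and 7.91% of all genes. By limma's voom on the reads recovered from the table, 6 mitotic genes were called higher and 0 lower, where 5.47% and 3.87% of all genes were called.

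Among the S phase genes, limma called 0 of 21 higher and 0 lower ex vivo, against 3.62% and 1.67% of all genes. At an unadjusted p under 0.05 there were 4 higher (Mcm6, Tyms, Rrm1 and Mcm5) and 0 lower, against 9.99% and 7.91%. Voom called 1 higher and 0 lower, which is near the 5.47% and 3.87% of all genes. The median change was 0.19, with 23 of 24 changes positive. In 7 of 21 tested S phase genes all 3 cKO libraries were above all 3 WT libraries on the scaled TPM, and in 0 all below, against 11.6% and 9.95% of all genes. The 1 negative change was that of Pcna, which was at 101, 58.4 and 107 TPM in WT and 85.6, 63.7 and 88.9 TPM in cKO (log2 change -0.36). The groups overlapped for Pcna.

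On the TPM as deposited, the sums of B cell and plasma cell markers were higher in cKO than in WT Treg ex vivo. Those of myeloid, CD8 T cell, NK cell and erythroid precursor markers overlapped between the genotypes. B cell markers summed to 9.49 to 12.7 TPM in WT ex vivo and 16.1 to 22.0 TPM in cKO ex vivo, and plasma cell markers to 7.18 to 9.45 and 12.2 to 17.1 TPM. Within these lists Cd79b (4.72 to 7.65 against 11.6 to 12.1 TPM) and Prdm1 (4.32 to 5.46 against 9.08 to 12.2 TPM), which Treg also express in the case of Prdm1, made most of the difference, while Ms4a1 (0.973 to 1.21 against 1.01 to 1.82) and Sdc1 (1.79 to 2.12 against 1.68 to 3.11) overlapped. After scaling, limma called Prdm1 higher in cKO (0.76, adjusted p = 0.00765) and did not call Cd79b (0.70, adjusted p = 0.112). The part of these markers in the mitotic difference was not tested. Without the female WT ex vivo 3, the change of Kif11 was 0.68 and its call was lost (adjusted p = 0.0926).

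**Figure D3:**
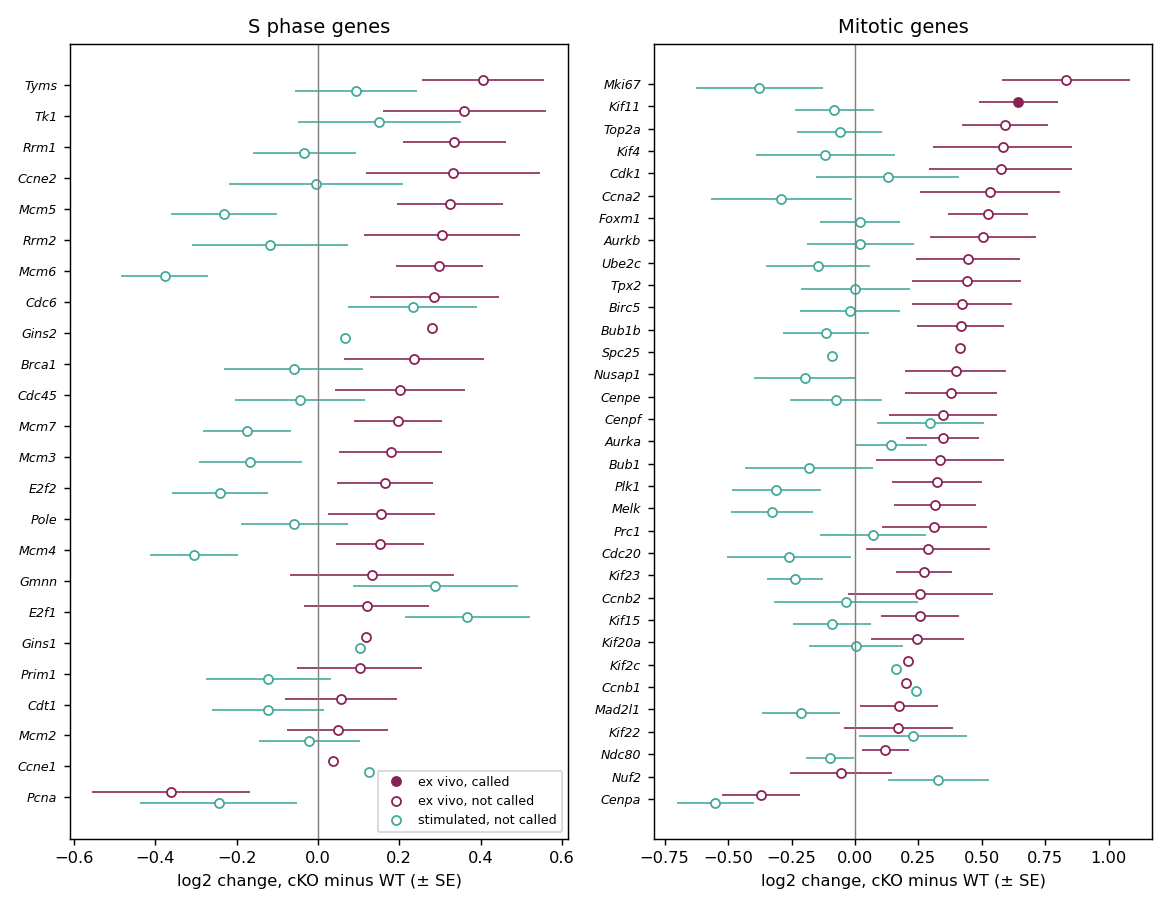
Log2 change between cKO and WT Treg for each S phase (left) and mitotic (right) member, ex vivo (purple) and stimulated (green), ± SE, with filled points for calls at an adjusted p under 0.05 and points without a bar for the 6 members that were not tested. Ex vivo changes of the mitotic genes lie to the right of 0 for 31 of 33 genes and only Kif11 is filled, while changes after stimulation lie on both sides of 0.

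The second comparison put the genotypes side by side after 4 h of stimulation, and here no member was called. Mki67 was at 27.9, 13.4 and 33.9 TPM in WT stimulated and 26.0, 12.1 and 9.59 TPM in cKO stimulated, with overlapping ranges. Kif11 was at 9.12, 4.85 and 8.75 TPM against 8.48, 4.92 and 4.15 TPM, also with overlap. Limma called 0 of 30 mitotic and 0 of 21 S phase genes in either direction, where 3.3% of all genes were called higher and 3.63% lower (6.93% in either direction). At an unadjusted p under 0.05 the counts were 0 higher and 1 lower for the mitotic genes (Cenpa, -0.55) and 1 higher and 2 lower for the S phase genes (E2f1 0.37, Mcm6 -0.38, Mcm4 -0.31), against 9.89% and 13.9% of all genes. Voom called 1 lower in each group, Cenpa and Mcm6, and 0 higher, against 5.42% and 4.2% of all genes.

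The median change was -0.08 for the mitotic and -0.05 for the S phase genes, against -0.03 for all tested genes. Cenpa, the histone variant that marks centromeres, was at 20.3, 17.1 and 19.7 TPM in WT stimulated and 13.3, 9.29 and 8.83 TPM in cKO stimulated, the 1 mitotic gene whose groups did not overlap on the scaled TPM. Cenpa was also the gene with the most negative mitotic change ex vivo, from 38.2, 19.9 and 23.6 TPM in WT to 27.7, 22.8 and 20.9 TPM in cKO, with overlap. On the scaled TPM, the S phase genes that did not overlap were Mcm4, Mcm6 and Mcm7, lower in cKO, and Cdc6 and E2f1, higher, where 18% and 12.8% of all tested genes did not overlap on the lower and the higher side. As deposited, Mcm7, Cdc6 and E2f1 overlapped. No gene of these passed the adjusted test.

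**Figure D4:**
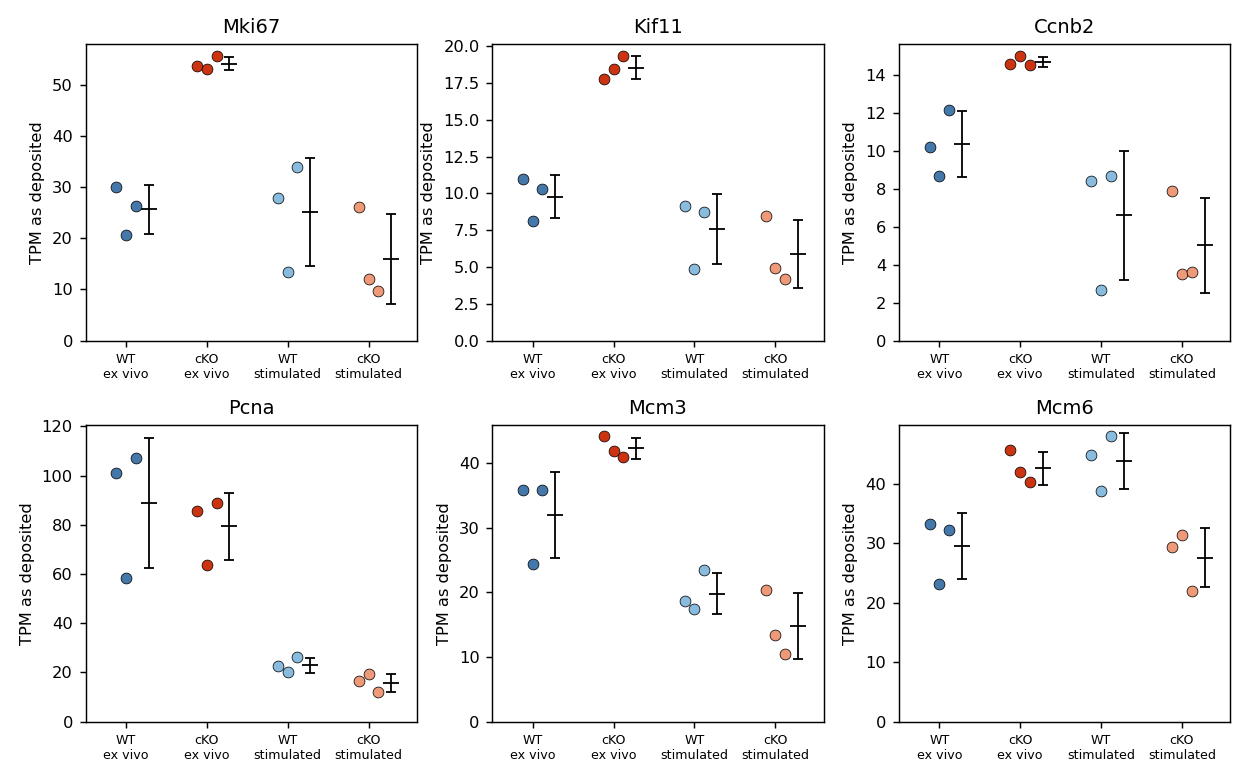
TPM as deposited in each library for 3 mitotic genes (Mki67, Kif11, Ccnb2) and 3 S phase genes (Pcna, Mcm3, Mcm6); dots are libraries, bars the mean ± SD of 3. The mitotic genes are highest in cKO ex vivo (Mki67 53.2 to 55.6 TPM), Pcna is lower in all stimulated libraries (11.9 to 26.1 TPM), and Mcm6 is higher in cKO ex vivo and lower in cKO stimulated than in the matching WT libraries.

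The third comparison was stimulation in WT Treg. Of the tested members, 6 of 21 S phase genes were called lower and 1 higher, and 4 of 30 mitotic genes lower and 1 higher. Over all tested genes 19.3% were called lower and 12.7% higher. The largest change among the members was in Pcna. Pcna, the sliding clamp of the replicative polymerases, went from 101, 58.4 and 107 TPM to 22.5, 20.2 and 26.1 TPM, a log2 change of -2.06 ± 0.19 (adjusted p = 2.62e-05). Mcm3, a subunit of the replicative helicase, went from 35.8, 24.4 and 35.8 TPM to 18.6, 17.4 and 23.4 TPM (-0.85 ± 0.13, adjusted p = 0.000518). The groups of both genes did not overlap.

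E2f2, an activator E2F, went from 15.6, 12.3 and 14.4 TPM to 9.57, 6.96 and 11.7 TPM (-0.74 ± 0.12, adjusted p = 0.000819). Rrm1, the large subunit of ribonucleotide reductase, went from 21.5, 16.8 and 22.7 TPM to 15.2, 11.4 and 19.8 TPM (-0.59 ± 0.13, adjusted p = 0.00490). Mcm4 went from 45.7, 28.3 and 40.0 TPM to 32.1, 26.5 and 35.4 TPM (-0.45 ± 0.11, adjusted p = 0.00936). E2f2 did not overlap between the groups, while Rrm1 and Mcm4 overlapped as deposited and not after scaling between libraries.

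In all, 6 of 21 tested S phase genes fell (Pcna, Mcm3, E2f2, Rrm1, Mcm4 and Mcm2) and 1 rose, where 19.3% of all genes fell and 12.7% rose (32% in either direction). Mcm2, outside the rule for named genes and picked after its values were seen, changed by -0.44 (adjusted p = 0.0205). The riser was Mcm6, a subunit of the same helicase, which went from 33.3, 23.1 and 32.2 TPM to 44.8, 38.8 and 48.0 TPM (0.37 ± 0.11, adjusted p = 0.0219) with no overlap. Its call held in 14 of 22 alternatives, and in 7 of the 12 that left out 1 library. Of the other helicase subunits, Mcm5 (-0.27, adjusted p = 0.133) and Mcm7 (-0.18, adjusted p = 0.236) did not pass. The median over the 24 S phase genes was -0.17, against 0.0021 for all tested genes. That median was 0.0039 on the TPM as deposited, where the median of all tested genes also moved up by 0.18 and 1 gene, Pcna, was called.

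Of 30 tested mitotic genes, 4 fell and 1 rose, where 19.3% of all genes fell and 12.7% rose. Ccnb2, cyclin B2, which activates Cdk1, went from 10.2, 8.69 and 12.2 TPM to 8.42, 2.67 and 8.69 TPM (-0.88 ± 0.28, adjusted p = 0.0359). Cenpa fell by 0.63 on the log2 scale (adjusted p = 0.00894) and Kif11 by 0.54 (adjusted p = 0.0208). Aurka, the centrosomal kinase of spindle assembly, went from 6.75, 5.03 and 6.88 TPM to 5.24, 4.32 and 4.78 TPM (-0.48 ± 0.14, adjusted p = 0.0259). After scaling, the stimulated libraries were below the ex vivo libraries for all 4 genes. The call of Kif11 held in 16 of 22 alternatives.

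The riser was Melk, a kinase of G2 and mitosis, at 5.50, 5.39 and 4.24 TPM ex vivo and 10.3, 5.60 and 10.4 TPM stimulated (0.48, adjusted p = 0.0430), which overlapped after scaling. The share of mitotic genes called, 4 and 1 of 30, was below the 19.3% and 12.7% of all genes. Leaving out 1 library moved the mitotic count between 1 and 5. It was 1 without WT ex vivo 3, where 26.1% of all genes were called in either direction, and 3 without WT ex vivo 1, WT stimulated 2, WT stimulated 3 or cKO ex vivo 3. The median mitotic change was -0.09, and became 0.05 without WT stimulated 2, the WT stimulated library with the lowest mitotic levels.

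The fourth comparison was stimulation in cKO Treg, where more members were called lower than in any other comparison. Of 21 tested S phase genes 13 fell and 0 rose, and of 30 tested mitotic genes 18 fell and 0 rose, where 26.5% of all genes fell and 17.3% rose (43.8% in either direction). Voom called 14 and 20 lower and 0 higher, where 24.6% of all genes were called lower and 21.9% higher. At an unadjusted p under 0.05 the counts were 15 and 22 lower and 0 higher, where 30.1% of all genes were lower and 22.4% higher. The median change was -0.42 for the S phase genes and -0.57 for the mitotic genes, against -0.01 for all tested genes. Groups did not overlap, with every stimulated library lower, in 15 of 21 S phase and 24 of 30 mitotic genes, where 30.7% of all genes did so.

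Other values moved with stimulation too. The share of TPM taken by Gm10800 lay between 17.7% and 39.8% ex vivo and between 32.6% and 44.4% after stimulation in WT. In cKO it lay between 20.4% and 24.4% ex vivo and between 42.9% and 55.9% after stimulation, without overlap. Summed over 5 genes, myeloid markers were at 11.4 to 14.3 TPM in WT ex vivo and 19.4 to 28.7 TPM in WT stimulated, and at 12.9 to 20.3 and 17.7 to 26.8 TPM in cKO, where they overlapped. Of these markers Cd68 was called higher in WT (0.86, adjusted p = 0.000493) and in cKO (0.65, adjusted p = 0.00239), and the other 4 were under 5 TPM and not tested. Plasma cell markers (7.18 to 9.45 and 10.5 to 13.9 TPM) and NK cell markers (3.62 to 6.47 and 6.70 to 7.21 TPM) were also higher in WT stimulated than in WT ex vivo with no overlap, and overlapped in cKO. Treg markers were at 2325 to 2455 TPM in cKO ex vivo and 912 to 1679 TPM in cKO stimulated, with no overlap, and overlapped in WT (1543 to 2379 and 1184 to 1637 TPM). The median of the receptor genes was at 0.556 to 0.791 TPM in WT ex vivo and 0.851 to 1.01 TPM in WT stimulated, with no overlap, and overlapped in cKO (0.566 to 1.13 and 0.764 to 1.15 TPM). These sums and medians are on the TPM as deposited. The part of any of them in the stimulation changes was not tested.

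The S phase genes that fell cover the helicase, the clamp and the nucleotide supply. Pcna went from 85.6, 63.7 and 88.9 TPM to 16.4, 19.3 and 11.9 TPM (-1.94 ± 0.19, adjusted p = 2.93e-05). Mcm3 went from 44.1, 41.8 and 40.9 TPM to 20.4, 13.4 and 10.5 TPM (-1.19 ± 0.13, adjusted p = 4.62e-05). E2f2 went from 17.7, 21.2 and 17.4 TPM to 8.40, 5.16 and 5.53 TPM (-1.15 ± 0.12, adjusted p = 3.94e-05). In all 3 genes each stimulated library was below the lowest ex vivo library.

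Rrm1 went from 32.7, 28.8 and 29.8 TPM to 15.6, 12.1 and 9.10 TPM (-0.96 ± 0.13, adjusted p = 0.000193). Mcm4 went from 50.4, 50.5 and 46.2 TPM to 23.4, 23.97 and 15.1 TPM (-0.90 ± 0.11, adjusted p = 9.88e-05). All 6 subunits of the MCM helicase were called lower, with changes from -1.19 (Mcm3) to -0.30 (Mcm6, adjusted p = 0.0418). The call of Mcm6 held in 7 of 22 alternatives and its sign turned in 1 of them, while those of Mcm3, Mcm4, Mcm5 and Mcm7 held in all 22. The remaining calls were Rrm2, the small subunit of ribonucleotide reductase, Tyms, which makes thymidylate, Pole, the leading strand polymerase, and Cdc45, a partner of the helicase.

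Among the mitotic genes Mki67 changed most, from 53.6, 53.2 and 55.6 TPM to 26.0, 12.1 and 9.59 TPM (-1.51 ± 0.25, adjusted p = 0.000832). Kif11 went from 17.8, 18.4 and 19.4 TPM to 8.48, 4.92 and 4.15 TPM (-1.27 ± 0.16, adjusted p = 0.000113). Ccnb2 went from 14.6, 15.0 and 14.5 TPM to 7.89, 3.52 and 3.63 TPM (-1.17 ± 0.28, adjusted p = 0.00753). None of these groups overlapped, and the first cKO stimulated library was the highest of the stimulated 3 for each.

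Ccna2, cyclin A2, which drives S phase and mitotic entry, went from 17.6, 18.3 and 16.4 TPM to 9.64, 4.32 and 4.74 TPM (-1.13 ± 0.28, adjusted p = 0.00789). Top2a (-1.02, adjusted p = 0.000821) and Ube2c, the ubiquitin conjugating enzyme of the anaphase promoting complex (-1.01, adjusted p = 0.00292), fell as well. Mki67, Kif11, Ccnb2, Ccna2, Top2a, Ube2c and Cenpa were called in all 22 alternatives. The count of 18 became 10 without cKO stimulated 2, where 25.8% of all genes were called lower, and 11 without cKO ex vivo 3, where 21.3% were. Under a filter of 10 TPM, 7 of 14 tested mitotic and 7 of 11 tested S phase genes were called lower, where 26.4% of the 8088 genes tested were.

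**Figure D5:**
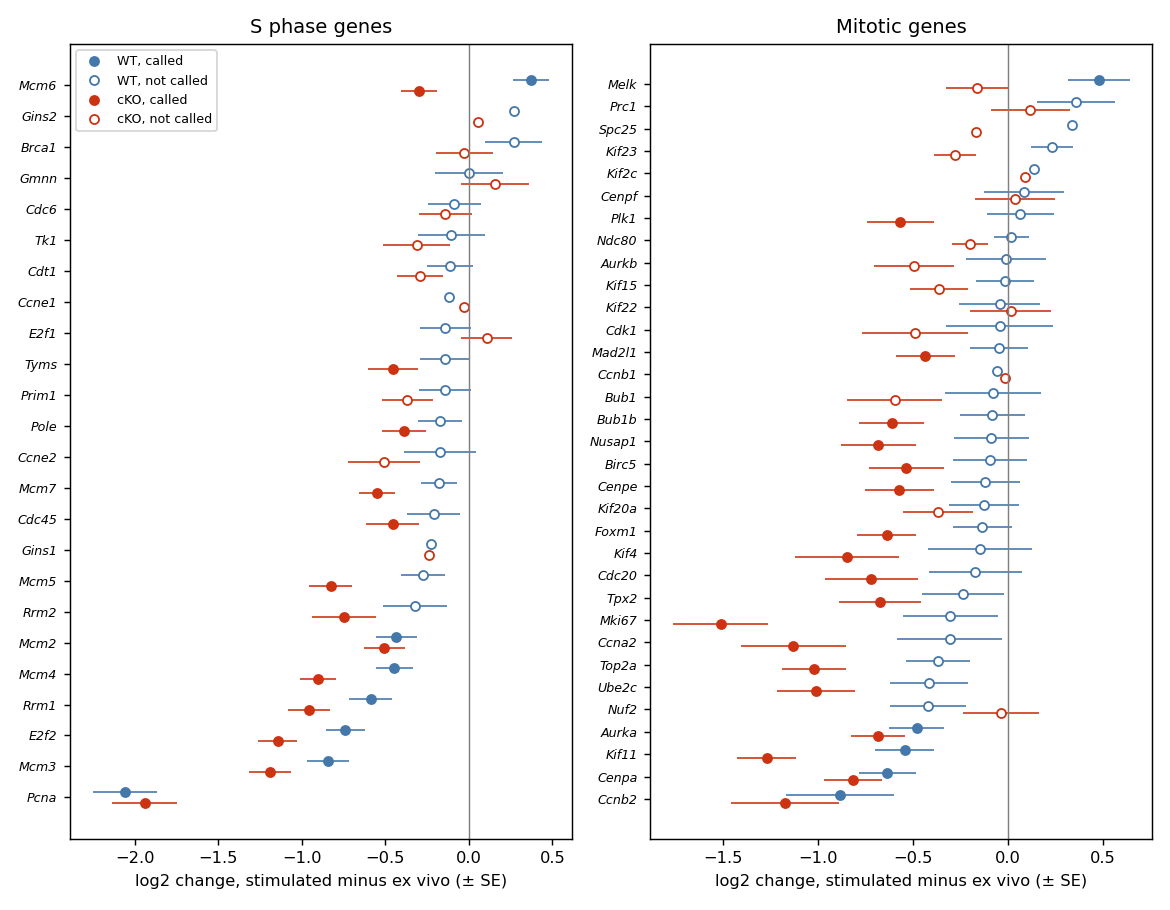
Log2 change from ex vivo to stimulated for each S phase (left) and mitotic (right) member in WT (blue) and cKO (red) Treg, ± SE, with filled points for calls at an adjusted p under 0.05 and points without a bar for the 6 members that were not tested. Pcna is at about the same place in both genotypes (-2.06 and -1.94), whereas most mitotic genes lie further to the left in cKO, with Mki67 at -1.51.

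Whether the genotypes responded unlike each other was tested by the interaction, the stimulation change in cKO minus that in WT. Limma called 0 of 30 mitotic and 0 of 21 S phase genes, where 0.451% of all genes were called higher and 0.653% lower (1.1% in either direction). At an unadjusted p under 0.05, 7 mitotic genes and 5 S phase genes had a more negative response in cKO and 0 a more positive one, where 8.86% and 5.6% of all genes did so. Voom called 1 lower in each group, Mki67 and Mcm6, and 0 higher, against 1.77% and 1.13% of all genes.

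Among the mitotic genes the most negative interactions were those of Mki67 (-1.21, 95% interval -1.99 to -0.43, adjusted p = 0.142), Ccna2 (-0.82, -1.68 to 0.04, adjusted p = 0.366) and Kif11 (-0.73, -1.21 to -0.24, adjusted p = 0.151). Mcm6 had -0.68 (-1.01 to -0.34, adjusted p = 0.0655), which combines the ex vivo and the stimulated difference of opposite sign. Of the 33 mitotic genes 30 had a negative interaction, with Ccnb1, Kif22 and Nuf2 the exceptions, and of the 24 S phase genes 20, with Ccne1, E2f1, Gmnn and Pcna the exceptions. The medians were -0.45 and -0.24, against -0.04 for all tested genes. The genotype and stimulation comparisons share libraries, so these signs are not separate evidence.

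Within groups, the mitotic genes moved together from library to library. After removal of the group means, the correlation of a mitotic gene with the mean of the other mitotic genes over the 12 libraries had a median of 0.80 over 30 genes. Cdc20 (0.96), Tpx2 (0.94), Ccna2 (0.94) and Kif4 (0.92) were highest, and Cenpa (-0.07) and Ndc80 (0.10) lowest. For an S phase gene with the other S phase genes the median was 0.36, and with the mitotic genes 0.42, while for all other tested genes with the mitotic genes it was -0.06. The S phase genes spread widely in their correlation with the mitotic genes, from E2f2 (0.92), Pole (0.90) and Cdc45 (0.82) through Rrm2 (0.70), Tyms (0.62), Mcm5 (0.42) and Mcm3 (0.21) to Pcna (-0.43), Mcm4 (-0.44), Mcm6 (-0.52) and Cdt1 (-0.59). These correlations are descriptions over libraries that share scaling and RNA preparation. The libraries farthest from their group means were WT stimulated 2 and cKO stimulated 2, where the mitotic genes lay on average 0.31 and 0.29 (log2) below, and cKO stimulated 1, where they lay 0.22 above.

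Changes were also set beside the promoter letters, with no test. Among mitotic genes the median change ex vivo was 0.34 for the 21 with CHR letters and 0.31 for the 7 without, and the median response of cKO Treg was -0.60 and -0.43. Among S phase genes the median response of cKO Treg was -0.55 for the 7 with E2F letters, Mcm3, Mcm6 and E2f2 among them, and -0.46 for the 11 without, which include Pcna at -1.94.

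Other genes of the same pathways, listed by role with earlier results of these data known, were counted in the same fit. Of 42 tested mitotic genes outside the 33, 5 were higher and 0 lower in cKO ex vivo, against 3.62% and 1.67% of all genes. Cdc25b, the phosphatase that activates Cdk1, was at 26.2, 16.6 and 21.1 TPM in WT and 35.7, 34.8 and 38.4 TPM in cKO (0.53, adjusted p = 0.00794), and Incenp, of the chromosomal passenger complex, changed by 0.52 (adjusted p = 0.0189). Racgap1, of the central spindle, changed by 0.51 (adjusted p = 0.0426). Of these calls, that of Cdc25b held without any 1 library, with adjusted p up to 0.0421 (without cKO ex vivo 3), while that of Incenp held in 7 and that of Racgap1 in 3 of the 12 fits that left out 1 library. After stimulation 3 were lower in cKO and 0 higher, against 3.63% and 3.3% of all genes (Cdc25b -0.44, the condensin subunit Smc4 -0.64 and the kinetochore gene Zwint -0.37, adjusted p = 0.0181, 0.0122 and 0.0474).

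With stimulation, 5 of these 42 fell and 2 rose in WT, both below the shares of all genes (19.3% and 12.7%). In cKO 22 fell and 0 rose, against 26.5% and 17.3% of all genes. For the interaction 1 of the 42 was called lower and 0 higher, where 0.653% and 0.451% of all genes were. This was Cdc25b (-0.97, adjusted p = 0.0122). In WT it was at 26.2, 16.6 and 21.1 TPM ex vivo and 23.9, 17.9 and 27.7 TPM stimulated. In cKO it was at 35.7, 34.8 and 38.4 TPM ex vivo and 15.9, 14.3 and 10.8 TPM stimulated. Pttg1, securin, fell in both genotypes (-0.77 and -0.55, adjusted p = 4.25e-05 and 0.000315), as did Hmgb2 (-0.73 and -0.97, adjusted p = 0.00268 and 0.000375). Of 34 tested replication genes outside the 24, 1 was higher and 0 lower in cKO ex vivo and again after stimulation, in both cases Rfc3, of the clamp loader (0.48 and 0.45, adjusted p = 0.0224 and 0.0249), calls that held in 7 and 8 of the 12 such fits. A count of 1 in 34 is near the share of all genes called higher (3.62% and 3.3%). With stimulation 10 fell and 1 rose in WT, against 19.3% and 12.7% of all genes, and 14 fell and 1 rose in cKO, against 26.5% and 17.3%. Orc6, of the origin recognition complex, had the lowest adjusted p in both (-0.92 and -1.07, adjusted p = 7.74e-05 and 2.31e-05), and the riser in both was Pold3 (0.51 and 0.33, adjusted p = 0.00115 and 0.0109).

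On the NCBIM37 assembly (mm9) that the reads were aligned to, Mki67 lies on chromosome 7 at 142881471 to 142908062, Kif11 on chromosome 19 at 37450893 to 37496349, Pcna on chromosome 2 at 132074898 to 132079050 and Mcm6 on chromosome 1 at 130228168 to 130256233. Values are sums over the exons of each gene. Of the 57 members 3 shared exon bases with another gene on the same strand, Mcm7 with Mir25 and Mir93 (3.89% of its exon bases), Top2a with SNORA32 (1.35%) and Foxm1 with 4933413G19Rik (2.62%).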

How the data were processed

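The authors removed ribosomal RNA, sequenced strand-specific paired-end libraries, aligned reads to mm9 with STAR 2.6.0c and counted them on exons with HTSeq 0.6.1. The table deposited by the authors gives, per gene and library, an expression signal in TPM, summing to 1000000 per library, and its log2 value, to which the authors had added the value of 1 read. A second deposited table holds fold changes and p-values of the authors' own tests and was not used.

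Genes reaching a group mean of 5 TPM were kept, libraries were put on 1 scale by trimmed means of log ratios (30% of M and 5% of A values dropped), and values were fitted as log2(TPM + 1) with limma 3.58.1 (trend) in R 4.3.3, with 12 libraries and group as the only term. Changes are on this scale, which understates low genes. P-values were two-sided, Benjamini-Hochberg adjusted within each of 5 comparisons and called under 0.05. TPM are as deposited unless called scaled. An exact permutation test of 3 against 3 libraries cannot go below 0.1. The TPM over the amount added before the logarithm gave whole reads (within 0.01) for 99.9977% of values, used for voom. The fit was tested on simulated data. Limma was used because the values are TPM.

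Members and lists were chosen with earlier results of these data known. Members given library by library were those called in at least 1 comparison, up to the 4 largest changes per list and comparison, and the 3 of highest mean TPM per list; of the other lists, up to 3 genes of lowest adjusted p. Further members were named after their values were seen. Alternatives were other filters (1 TPM, 10 TPM, none), a pseudocount of 0.1, other scalings, subtraction of the receptor gene median, voom, the replicate number as a block and leaving out each library. Python 3.11.15 read the files. Sequences are RefSeq's, positions GENCODE vM1's. The values of 1 marker gene are not reported here.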

Additional observations from a re-analysis of the deposited data

Results flagged for a closer look

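Mcm6 moved in opposite directions in the genotypes, with libraries that did not overlap in any of the 4 comparisons of scaled TPM. Its libraries were higher in cKO ex vivo and lower in cKO stimulated than in WT, neither difference being called, and it rose with stimulation in WT and fell in cKO. The interaction, which tests this difference, was -0.676 for both readings (adjusted p = 0.0655, not called, range 0.0144 to 0.623 over 22 alternatives, called in 4). Kif23, a kinesin of the central spindle and midbody, was higher in all WT stimulated than in all WT ex vivo libraries on the scaled TPM and lower in all cKO stimulated than in all cKO ex vivo libraries. As deposited the WT libraries overlapped, and neither change was called (0.23 and -0.28, limma adjusted p = 0.131 and 0.0624). It had an interaction of -0.511 (adjusted p = 0.153, not called, range 0.0429 to 0.491, called in 1).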

How the results depend on the processing

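Of the 57 members, 6 stayed under 5 TPM and were not tested, and the 3 libraries per group limit every call. The filters and the lack of scaling moved the median of all tested genes. Against the main setting, the median of the tested genes moved by -0.27, -0.23, -0.49 and -0.26 under a 1 TPM filter (genotype after stimulation, stimulation in WT, stimulation in cKO, interaction), by -0.27, -0.21, -0.48 and -0.28 with no filter, by 0.11, 0.11, 0.23 and 0.12 under 10 TPM, and by -0.26, 0.18, -0.30 and -0.48 on the TPM as deposited, where the genotype effect ex vivo moved by 0.22. The part of all calls that were higher was 68.5%, 47.6%, 39.6%, 39.5% and 40.8% in the 5 comparisons and 95.2%, 22.5%, 60.5%, 11.9% and 8.96% as deposited. The members' medians in these settings have to be read against these shifts. Quantile normalization moved the median of all genes by 0.01 in cKO and -0.03 for the interaction, less than it moved the members' medians, and the cause was not tested.

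Mitotic calls ex vivo were 1 of 30 in the main setting, where 5.29% of all genes were called in either direction. They were 0 of 33 under the 1 TPM filter and with no filter, where 0.168% and 0.155% of all genes were called, so that a 0 there says little about the members. They were 0 of 30 with a pseudocount of 0.1 (5.08% of all genes), as deposited (2.05%), after quantile normalization (5.05%) and after background subtraction (6.07%), and 6 of 30 by voom (9.35%). In the other comparisons the counts outside 1.5 times the main count were as follows. Under 1 TPM, 3 of 24 S phase and 2 of 33 mitotic genes were called in WT, where 5.43% of all genes were, and 20 of 24 and 29 of 33 in cKO, where 17.4% were. With no filter 3 of 24 and 1 of 33 were called in WT (4.68% of all genes). Under 10 TPM, 7 of 11 S phase and 7 of 14 mitotic genes were called in cKO (53.8%), 2 of 14 mitotic genes in WT (48.3%) and 1 of 11 S phase genes for the interaction (4.17%). As deposited, 1 of 21 S phase and 0 of 30 mitotic genes were called in WT (14.6%). Quantile normalization called 3 of 30 mitotic genes for genotype after stimulation (11.9%), 3 in WT (29.9%), and 1 gene in each list for the interaction (2.94%). Voom called 1 of 21 S phase genes ex vivo (9.35%), and 1 in each list after stimulation (9.63%) and for the interaction (2.9%).

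Medians that moved by more than the replicate spread were, for the S phase genes under 1 TPM, -0.31 (genotype after stimulation), -0.39 (WT), -0.88 (cKO) and -0.48 (interaction), and for the mitotic genes -0.33, -0.30, -1.01 and -0.70. With no filter they were -0.31, -0.37, -0.87 and -0.49 for the S phase genes and -0.33, -1.01 (cKO) and -0.71 (interaction) for the mitotic genes. Under 10 TPM they were -0.20 and -0.34 in cKO. As deposited the S phase medians were 0.41 ex vivo, -0.30, 0.0039, -0.70 and -0.70, and the mitotic medians -0.33 after stimulation, -0.85 in cKO and -0.91 for the interaction. After quantile normalization they were -0.68 (cKO) and -0.41 (interaction) for the S phase and -0.79 (cKO) for the mitotic genes.

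Leaving out each library gave 0 to 2 S phase calls after stimulation (2 without cKO stimulated 2), 5 to 7 in WT, 9 to 13 in cKO and 0 to 1 for the interaction (1 without cKO stimulated 2). For the mitotic genes it gave 0 to 3 ex vivo (3 without WT stimulated 2 or cKO stimulated 1), 0 to 1 after stimulation (1 without WT ex vivo 1 or cKO ex vivo 1), 1 to 5 in WT, 10 to 19 in cKO and 0 for the interaction. Over the same settings 2.49% to 5.56% of all genes were called ex vivo, 3.18% to 7.43% after stimulation, 24.3% to 32.9% in WT, 31% to 44.7% in cKO and 0.42% to 1.56% for the interaction. The mitotic median after stimulation ranged from -0.24 to 0.05 and the S phase median from -0.13 to 0.02, both positive without cKO stimulated 2.

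With the replicate number as a block, 1 mitotic gene was called after stimulation, where 4.73% of all genes were, and no other count of calls moved beyond 1.5 times. Libraries of the same number had correlations of deviations from -0.21 to 0.26. Between the ex vivo groups these were 0.15, 0.26 and 0.08, and each WT library correlated best with the cKO library of its number. In the other pairs of groups they were from -0.21 to 0.06. Whether the numbers pair libraries cannot be told from these values.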

Other observations

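Of 13 tested regulators of the E2F, retinoblastoma and DREAM machinery, 0 were called higher and 1 lower in cKO ex vivo (against 3.62% and 1.67% of all genes), 0 and 2 after stimulation (3.3% and 3.63%), and 0 and 1 for the interaction (0.451% and 0.653%). With stimulation 1 rose and 0 fell in WT (12.7% and 19.3% of all genes), and 3 rose and 3 fell in cKO (17.3% and 26.5%). Of the 14 listed, 7 changes were positive and 7 negative in each genotype comparison, so the list as a whole had no single direction. Rb1, the retinoblastoma protein, was at 31.7, 23.5 and 26.8 TPM in WT ex vivo and 22.0, 26.5 and 23.2 TPM in cKO ex vivo, which overlap as deposited, and was lower after scaling (-0.41, limma adjusted p = 0.0107). After stimulation Rb1 was at 26.6, 22.1 and 32.5 TPM in WT and 17, 16.1 and 12.7 TPM in cKO (-0.50, adjusted p = 0.00301), with no overlap. The call held in 20 of 22 alternatives after stimulation and in 18 of 22 ex vivo, where it was lost without cKO ex vivo 3 (adjusted p = 0.0529).

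Rbl2, p130 of the DREAM complex, did not differ beyond its spread ex vivo (-0.02, 95% interval -0.16 to 0.13). After stimulation it was at 34.4, 27.0 and 37.1 TPM in WT and 20.7, 18.6 and 14.4 TPM in cKO, again with no overlap (-0.56, adjusted p = 0.000648). Its interaction was called (-0.55, adjusted p = 0.0204), in 10 of 22 alternatives and in 4 of the 12 that left out 1 library. Lin37, a MuvB subunit, rose with stimulation in both genotypes (0.65 and 0.87, adjusted p = 0.00724 and 0.00102).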
